A study of Pimephales promelas with 270 samples.

Results

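The 20 libraries described here are 10 from fathead minnow larvae (Pimephales promelas, a North American freshwater minnow on which chemicals are often tested) held for 24 h in propranolol at 3.3 mg/l, the high dose, and 10 from their controls. They were chosen by their labels, which give an age of 4 days post fertilization, an exposure of 24 h and the dose, and they are 20 of the 266 libraries in the table. The study exposed larvae of 3 ages (4, 5 and 6 days) for 6, 24 or 48 h to 0, 0.66 or 3.3 mg/l, and each combination of age and duration, with a library code of its own, is called an exposure set. The 10 libraries at 0.66 mg/l, the low dose, of the same set are used for reference. No strain is given for any group. The sample titles name the groups as control, low dose and high dose, and the dose labels read C, L and H. The concentrations were taken from the design text as the lower and the higher one, with no word on a solvent. The treatment text on each sample speaks of ethinyl estradiol, and the propranolol labels and design text were followed. How many larvae a library holds, and whether libraries of a group came from separate vessels, is not given, so the p-values rest on the spread among these libraries, which may be technical. RNA came from whole larvae, so a lower level can mean fewer cells of a type or less RNA per cell, which cannot be told apart.

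Propranolol blocks beta-adrenergic receptors, through which adrenaline and noradrenaline raise cyclic AMP in the cell. In fish as in mammals these receptors act on the rate and force of the heartbeat and on metabolism. The molecule is fat-soluble and is broken down in the liver by cytochrome P450 enzymes. The question of the comparison is which transcripts differed after a day at the higher dose in the youngest larvae, and how evenly the larvae of that group differed. The table gives transcripts by bare identifiers, and 0 of the 34856 are found in the RefSeq gene table, so no name, function or sequence can be given, and gene lists for receptors, heart, liver and drug metabolism could not be looked up. At most 2 transcripts that rose and 2 that fell are printed by identifier, and others are described without one.

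Libraries of the set held 9.93 to 31.0 M counts (M, mega), with a median of 13.6 M in the controls, 14.4 M at the low dose and 13.6 M at the high dose. High-dose library 34 had the highest total and high-dose library 31 the lowest. Between 33766 and 34779 transcripts had counts above 0, and 7.31% to 10.5% of the counts fell on a library's 10 most abundant transcripts. Levels are given as CPM, the count of a transcript per M counts of its library after scaling between libraries (TMM), and are compared only within a transcript.

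After 24 h at the high dose, 4 of 29440 transcripts passed a false discovery rate of 0.05 against control in edgeR's quasi-likelihood test, 3 as rises and 1 as a fall. That is 0.0136% of the transcripts tested, 0.0102% for rises and 0.0034% for falls. At an unadjusted p under 0.05, 1695 transcripts (5.76%) differed. The same libraries against the low dose gave 0 calls (0%) and 1530 transcripts at an unadjusted p under 0.05 (5.2%), and DESeq2 gave 3. Low dose against control gave 0 calls (0%) and 2175 at an unadjusted p under 0.05 (7.39%) in the same edgeR fit. These comparisons share libraries with each other.

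The count of 4 varied with the fit and with single libraries. DESeq2 called 21 transcripts (0.0627% of the 33502 to which it gave an adjusted p), and a fit of all 27 groups of the study called 26 (0.0765%). A fit of only the 20 high-dose and control libraries called 0, with 1749 at an unadjusted p under 0.05, and sums of libraries with adjacent numbers also called 0, with 1927. Leaving out 1 library gave 0 calls without control 2 or control 4, 1 without high-dose library 32 or 40, and 2 without control 10, control 11 or high-dose library 43. It gave 7 without high-dose library 34, 41 or 44 and 10 without control 7.

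FMt045902 had the smallest p. The controls lay between 41.1 and 59.1 CPM with a median of 50.8, the low-dose libraries between 35.7 and 69.1 with a median of 57.7, and the high-dose libraries between 48.2 and 232 with a median of 110. In 9 of 10 high-dose libraries the level was above that of the highest control, and the lowest high-dose library lay within the control range. Against control it rose 2.37-fold, 1.25 ± 0.20 on the log2 scale (SE, edgeR adjusted p = 0.021). Against the low dose the difference was 1.07 ± 0.20 and missed the threshold (edgeR adjusted p = 0.14), although DESeq2 gave an adjusted p of 0.0014 there. The low dose stood at 0.17 ± 0.20 from control (edgeR adjusted p = 0.88). When 1 library was left out its log2 fold change ran from 1.09 to 1.34, and its adjusted p passed 0.05 without control 2 (0.072) and without control 4 (0.066). It was 0.12 in the fit of the 20 libraries alone and 0.39 with sums of adjacent numbers.

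FMt000532 rose by a smaller fold. The controls ran from 50.7 to 82.9 CPM with a median of 61.9, the low dose from 56.4 to 91.3 with a median of 69.7, and the high dose from 72.3 to 110 with a median of 89.2. Again 9 of 10 high-dose libraries lay above the highest control, and the exception was library 34, the most deeply sequenced one. The log2 fold change was 0.49 ± 0.09 (SE, edgeR adjusted p = 0.021), or 1.40-fold. Its adjusted p was 0.12 with the 20 libraries alone, 0.15 with sums of adjacent numbers and between 0.050 and 0.072 without control 2, 4 or 11 or high-dose library 32 or 40.

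The third transcript that rose went from 33.3 ± 6.71 CPM in controls (SD, n = 10) through 38.0 ± 5.08 at the low dose to 49.1 ± 8.40 at the high dose. Of its high-dose libraries, 7 of 10 were above the highest control, which had 43.6 CPM. The log2 fold change was 0.56 ± 0.10 (SE, edgeR adjusted p = 0.029), and it missed the threshold in the fit of 20 libraries (0.12) and with sums of adjacent numbers (0.15). Without 1 library its adjusted p ranged from 0.012 to 0.099, above 0.05 without control 2, 4, 5, 10 or 11 or high-dose library 32, 35, 40 or 43.

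FMt004418 was the transcript that fell. Controls ran from 7.21 to 23.5 CPM with a median of 17.3, and high-dose libraries from 5.66 to 11.4 with a median of 8.43. The groups overlapped, since 3 of 10 high-dose libraries were below the lowest control and controls 7 and 8 lay at 7.21 and 8.78 CPM, inside the high-dose range. The log2 fold change was -0.96 ± 0.17 (SE, edgeR adjusted p = 0.021), or 0.513 times the control level. The low-dose libraries, at 6.74 to 12.9 CPM, stood at -0.81 ± 0.17 from the same controls (edgeR adjusted p = 0.18), and the high dose at -0.15 ± 0.17 from the low dose (adjusted p = 0.99). Most control libraries lay above both doses. It missed the threshold with limma-voom (-0.87, adjusted p = 0.11), with the position in the group as a replicate block (-0.95, adjusted p = 0.19) and with adjacent numbers as a random block (-0.87, adjusted p = 0.088). So it did with the 20 libraries alone (adjusted p = 0.12) and with sums of adjacent numbers (adjusted p = 0.33), and at 0.060 to 0.072 without control 2, 4 or 10 or high-dose library 32, 40 or 43.

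**Figure D1:**
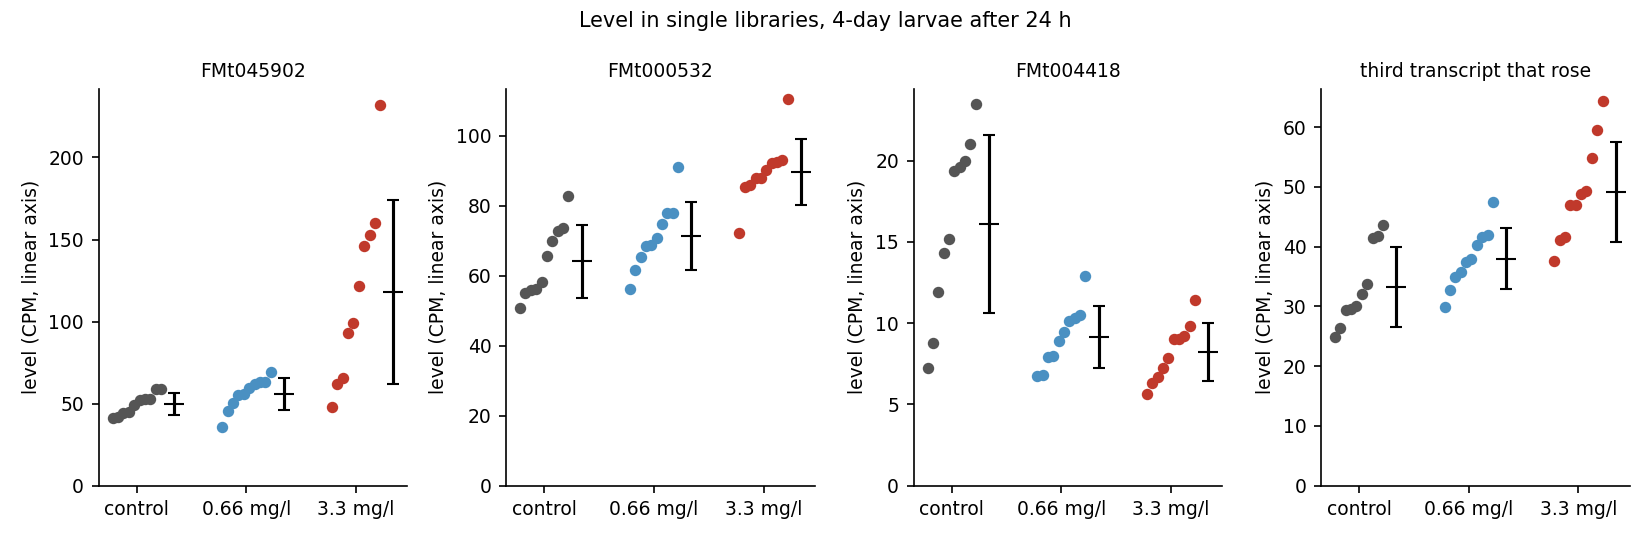
Levels of the 4 called transcripts in the 30 libraries of 4-day larvae after 24 h, in CPM on a linear axis from 0, with each point 1 library (10 a group, ordered by level) and the black mark beside them the mean ± SD. For FMt045902 the high-dose points spread from 48.2 to 232 CPM while the control points lie between 41.1 and 59.1. The panel of FMt004418 shows both doses below most controls.

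Just below the threshold, 8 further transcripts had an adjusted p under 0.10 (from 0.052), which made 12 with the 4 called, 9 higher and 3 lower at the high dose. Among the 29440 tested, a single transcript had every high-dose library above every control (0.0034%), and 0 had every high-dose library below every control (0%). That transcript ran from 95.6 to 124 CPM at the high dose and from 70.1 to 94.8 in controls, 0.33 ± 0.07 higher on the log2 scale (SE, edgeR adjusted p = 0.093). Its low-dose libraries ran from 79.3 to 120 CPM, across both ranges.

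The spread between libraries of the high-dose group was wide for FMt045902. Its standard deviation was 56.3 CPM around a mean of 118 at the high dose, 9.85 around 56.0 at the low dose and 6.57 around 49.7 in controls. As a share of the mean this is 47.7%, 17.6% and 13.2%. On the log2 scale the SD was 0.71 at the high dose and 0.19 in controls, a ratio of 3.74, and the highest high-dose library had 4.81 times the level of the lowest, against 1.44 times in controls. The ratio stayed between 3.29 and 4.03 when any 1 library was left out. Tested for spread over all transcripts with limma on absolute deviations, the difference had an unadjusted p of 0.0014 and ranked 48 among 29440, and it missed the threshold after adjustment (adjusted p = 0.83). An F-test of the ratio of variances, adjusted over all transcripts, gave an adjusted p of 0.45. Its ratio of SDs was at the 99.9 percentile of all transcripts.

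On the log2 scale the other called transcripts had a smaller SD at the high dose than in controls. The log2 SD of FMt000532 was 0.15 at the high dose and 0.23 in controls (limma spread test, adjusted p = 0.85), and that of FMt004418 was 0.31 and 0.57 (adjusted p = 0.86). For the third transcript that rose it was 0.24 and 0.28 (adjusted p = 0.95). None of these passed. FMt045902 was the only one of the 4 with a larger log2 SD at the high dose. In CPM the third transcript that rose also had a larger SD there, 8.40 against 6.71 in controls.

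By library number, FMt045902 had 146 and 232 CPM in high-dose libraries 31 and 32, and 65.3 and 61.8 in 34 and 35. It had 122 and 92.8 in 37 and 38, 99.2 and 48.2 in 40 and 41, and 153 and 160 in 43 and 44. On average libraries with adjacent numbers were nearer to each other, though not in each pair, and 31 was nearer to 43 than to 32. The mean difference between adjacent numbers was 0.449 on the log2 scale (5 pairs) and 0.903 between all others (40 pairs). In controls these were 0.279 and 0.220, and at the low dose 0.303 and 0.313. Over all transcripts, adjacent numbers shared little, with a consensus correlation of -0.049 within pairs in limma. What the numbers stand for is not given.

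**Figure D2:**
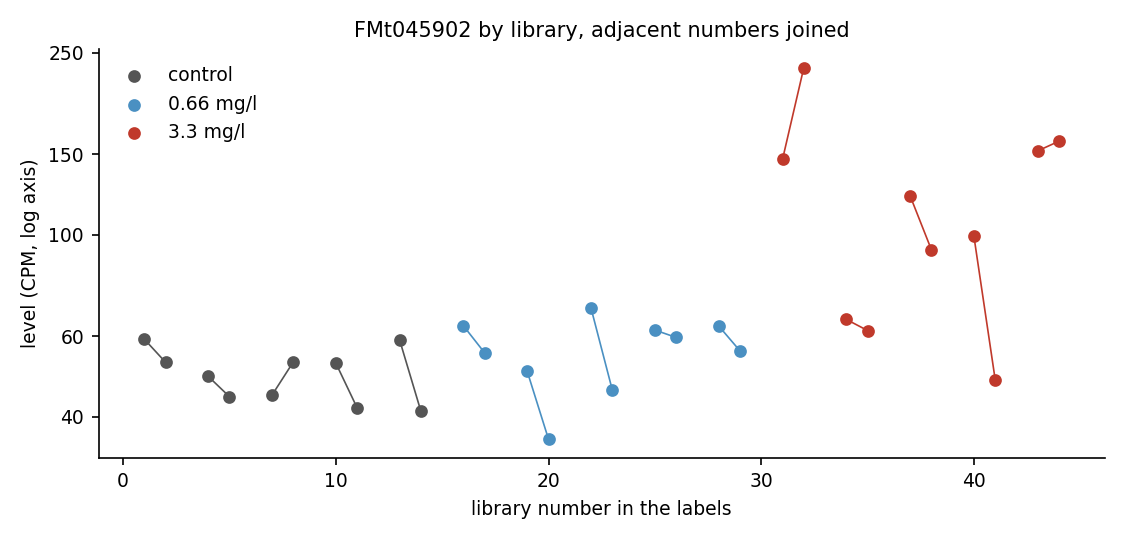
Level of FMt045902 in CPM, on a log axis, against the library number in the labels for controls, 0.66 mg/l and 3.3 mg/l, with each point 1 library and lines joining adjacent numbers. The pairs 31 and 32 and 43 and 44 lie at 146 to 232 CPM, and 34, 35 and 41 lie near the controls.

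Over all transcripts, the high-dose libraries lay about as far from each other as the controls did. The distance of a library from the mean of the others of its group, as a root mean square log2 difference over the 23022 transcripts with a mean log2 CPM of at least 1, was 0.379 ± 0.031 at the high dose (SD, n = 10) and 0.366 ± 0.039 in controls. The difference of 0.013 did not pass (permutation test, two-sided, p = 0.41, adjusted over 6 comparisons 0.59). The low dose had 0.377 ± 0.025. Transcript by transcript, 0 of 29440 (0%) differed in spread between high dose and control in the limma test, with 1720 at an unadjusted p under 0.05 (5.84%), and 0 differed by the ratio of variances (0%). Without control 10 the limma test called 2. For 52.2% of transcripts the SD was larger at the high dose, and the median SD was 0.30 in both groups. A count of 0 does not show that the spreads were alike. High against low dose gave 2 of 29440 calls in the limma spread test and 3 by the ratio of variances. Low dose against control gave 4 and 0.

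An apparent age of the larvae was read from transcripts that change with age in the controls of the other 8 sets. It can reflect the dose as well as the stage, since transcripts that respond to the dose were not left out. It was 5.09 ± 0.325 days at the high dose, 5.00 ± 0.151 at the low dose and 4.94 ± 0.230 in controls (SD, n = 10 each), where age plus duration on the labels is 5 days. The difference of 0.149 days between high dose and control did not pass (permutation test, two-sided, p = 0.25, adjusted over 6 comparisons 0.59). High-dose libraries ran from 4.63 days in library 41 to 5.74 in library 34, and 4 of 10 lay above the oldest control at 5.22. With apparent age as a covariate 5 transcripts were called. The 4 of the main fit were among them, each at an edgeR adjusted p of 0.049, with FMt045902 at a log2 fold change of 1.13.

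Among the 10 high-dose libraries, the log2 level of FMt045902 was set against 7 other measures. With apparent age it gave r = 0.34 (permutation p = 0.33, adjusted 0.44) and rho = 0.50 (permutation p = 0.14, adjusted 0.34), and r was 0.79 without libraries 34 and 41, the 2 farthest in apparent age. With the library total it gave r = -0.37 (permutation p = 0.37, adjusted 0.44) and rho = -0.22 (permutation p = 0.54, adjusted 0.62), and with distance r = -0.56 (permutation p = 0.093, adjusted 0.30) and rho = -0.54 (permutation p = 0.12, adjusted 0.34). Without the 2 farthest libraries these r were -0.00029 and -0.61. With FMt000532 r was 0.60 (permutation p = 0.058, adjusted 0.30) and rho 0.37 (permutation p = 0.29, adjusted 0.52), and r fell to 0.11 without the 2 farthest libraries. With FMt004418 r was -0.36 (permutation p = 0.30, adjusted 0.44) and rho -0.32 (permutation p = 0.37, adjusted 0.52), and r was -0.63 without 2. With the third transcript that rose r was 0.19 (permutation p = 0.59, adjusted 0.59) and rho 0.091 (permutation p = 0.81, adjusted 0.81), and r was -0.19 without 2. None passed after adjustment, and 10 libraries leave wide limits on each. FMt045902 was also higher in older controls, and it was not left out of the transcripts that could enter the apparent age. On CPM scaled over all libraries, its mean in controls after 24 h was 48.1 at 4 days, 77.0 at 5 days and 127 at 6 days. Whether stage has a part in its spread at the high dose was not tested beyond these relations.

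Fitted across all transcripts within the 10 high-dose libraries, 1 of 24268 (0.00412%) varied with FMt045902 and 2477 had an unadjusted p under 0.05 (10.2%). The same fit gave 5 of 24367 in controls (0.0205%), with 1267 at an unadjusted p under 0.05 (5.2%), and 0 of 24262 at the low dose (0%), with 679 (2.8%). FMt045902 itself had a log2 SD of 0.71 at the high dose, 0.28 at the low dose and 0.19 in controls. A wider range gives such a fit more power, so the shares of the 3 groups are not compared. The transcript found at the high dose fell by 0.96 on the log2 scale for each log2 unit of FMt045902 (edgeR adjusted p = 0.021), and stood at 0.02 between high dose and control (adjusted p = 1.00). Its slope in controls was 1.43 (unadjusted p = 0.29). Without high-dose library 34 the number at an unadjusted p under 0.05 was 3781 of 24301, and without library 41 it was 1675 of 24444. The count of calls was 15 without high-dose library 34 and 6 with apparent age as a covariate. It was 0 without 31, 35, 37, 41, 43 or 44. Without 32 it was 1, with a positive slope, unlike the transcript described here.

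Transcripts that rose in other sets were mostly higher here too. They were chosen for passing the threshold in their own set, which raises their values there, so a smaller median here does not show a smaller effect. Those sets share no library with this one. Of the 252 transcripts that rose in 4-day larvae after 48 h at the high dose (292 called there, 0.99%), 250 were tested here and 219 (87.6%) were higher at the high dose than in controls, against 49.7% of all transcripts tested. Their median log2 fold change was 0.17 at 24 h and 0.54 in their own set, and the median of all transcripts here was -0.0011. An unadjusted p under 0.05 was reached by 82 of them (32.8%, against 5.76% of all), and 3 passed the adjusted threshold. Those 3 are the transcripts that rose at 24 h. For the low dose, which shares its controls with the high dose, the median of the 250 was 0.02, and against the low dose the high dose stood at 0.15.

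Of the 40 transcripts that fell after 48 h, 26 were lower and 14 higher at 24 h (35% higher, against 49.7% of all tested). Their median was -0.08 on the log2 scale, and 3 had an unadjusted p under 0.05 (7.5%, near the 5.76% of all). The low-dose larvae stood at -0.10 from the same controls for these transcripts, and the high dose at 0.01 from the low dose. FMt004418 was not among the falls at 48 h, where it stood at -0.05 ± 0.14 (SE, edgeR adjusted p = 0.95). Its control level was lower there. On CPM scaled over all libraries, 4-day controls had a mean of 27.3 after 6 h, 15.6 after 24 h and 7.63 after 48 h. The high-dose mean was 7.96 after 24 h and 7.47 after 48 h.

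**Figure D3:**
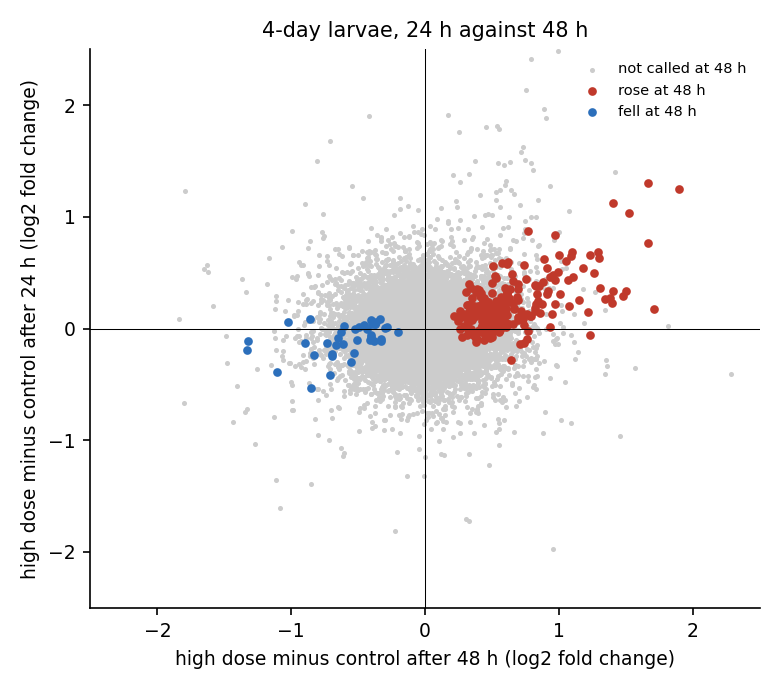
High dose minus control in 4-day larvae as log2 fold change after 24 h (vertical) against 48 h (horizontal), with 1 point for each of 28956 transcripts tested in both sets, red for those that rose at 48 h, blue for those that fell and grey for the rest. Red points lie mostly above 0 at 24 h (87.6%). They were chosen by their values at 48 h, so the sizes on the 2 axes are not compared, and 7 points are outside the axes.

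The lists of rises in the older larvae at 24 h gave a like picture. Of the 24 transcripts that rose in 5-day larvae (24 called, 0.0795%), 21 were higher in 4-day larvae. Their median log2 fold change was 0.39 here and 1.00 in their own set. An edgeR unadjusted p under 0.05 was reached by 13 of them (54.2%, against 5.76% of all transcripts). Of the 174 that rose in 6-day larvae (205 called, 0.69%), 173 were tested and 138 were higher (79.8%). Their median was 0.12 here and 0.55 in their own set, and 44 had an unadjusted p under 0.05 (25.4%). Of the 31 that fell in 6-day larvae, 30 were tested and 8 were higher (26.7%, against 49.7% of all tested). Their median was -0.09 here and -0.64 in their own set. Only 1 of the 30 had an unadjusted p under 0.05 (3.33%), a share below that of all transcripts. For these falls the median of the low dose was -0.04 from the same controls, and that of the high dose -0.06 from the low dose.

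The same lists give each library a response score, the mean over a list of its log2 CPM minus the mean of the controls (for a control, of the other controls), leaving out FMt045902. No test was made of the score. With the 249 transcripts from 4-day larvae at 48 h the score was 0.22 ± 0.13 at the high dose (SD, n = 10), 0.02 ± 0.11 at the low dose and had an SD of 0.13 around 0 in controls. It was above 0 in 9 of 10 high-dose libraries and highest in library 32 (0.50), which was also highest for FMt045902. Library 31 had the lowest score, at -0.01, although its level of FMt045902 was 146 CPM, and library 41, lowest for FMt045902, had a score of 0.15. The groups overlapped, since control 13 stood at 0.29 and 2 high-dose libraries lay above it. The SD of the score was 0.13 in both groups. Scoring a control against the other controls moves its score away from 0 and somewhat widens the control SD, for this list and the 2 below. The SDs of the score are therefore not compared between groups.

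With the 172 transcripts from 6-day larvae at 24 h fewer libraries overlapped. The score was 0.16 ± 0.08 at the high dose and had an SD of 0.06 around 0 in controls, with 7 of 10 high-dose libraries above the highest control, at 0.11. The highest was library 32 (0.30) and the lowest library 34 (0.04). With the 23 from 5-day larvae it was 0.41 ± 0.15, with an SD of 0.24 around 0 in controls, and above 0 in 10 of 10 high-dose libraries and highest again in library 32 (0.61). Control 13 had 0.54 there. Set against FMt045902 over the 10 high-dose libraries, the score of the 4-day, 48 h list gave r = 0.50 (permutation p = 0.13, adjusted 0.30) and rho = 0.59 (permutation p = 0.082, adjusted 0.34), with r = 0.71 without the 2 farthest.

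**Figure D4:**
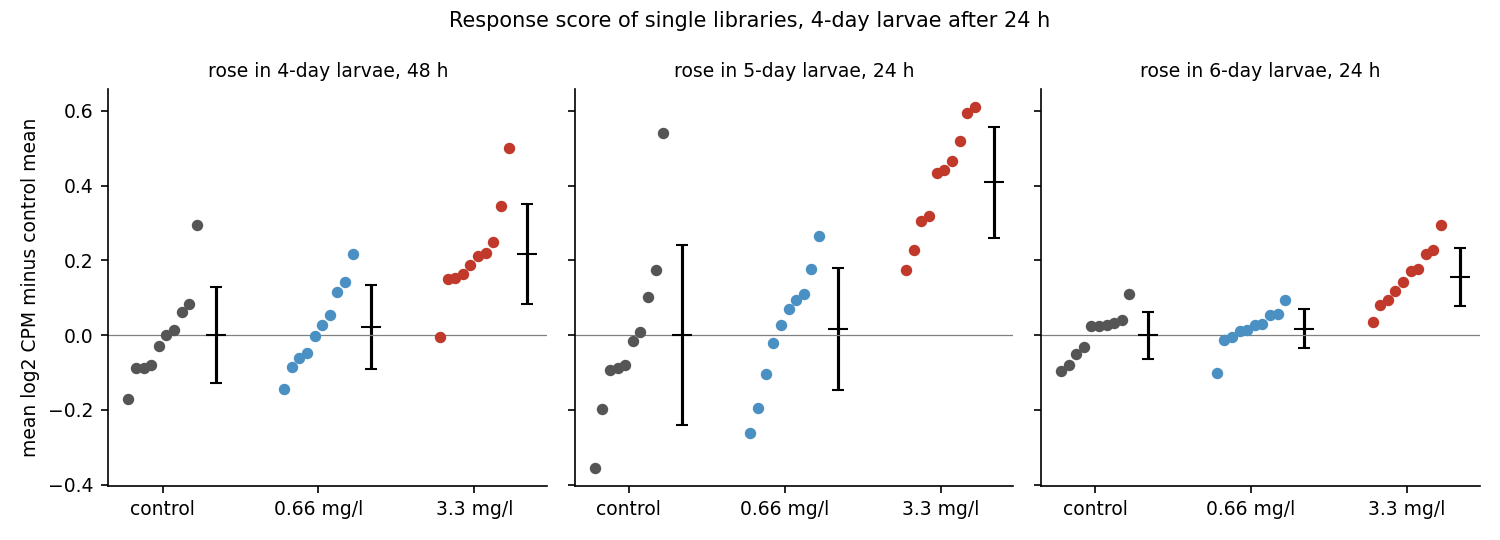
Response score of each of the 30 libraries of 4-day larvae after 24 h, as the mean log2 CPM minus the control mean over transcripts that rose at the high dose in 3 other sets, with each point 1 library (ordered by score) and the bar the mean ± SD. High-dose libraries lie above 0 except library 31 in the first panel, and control 13 stands among them in the first and second panels.

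Whether the effect at 24 h in 4-day larvae differed from that in other sets was tested directly in the fit of all 27 groups. The effect differed from that at 48 h for 1 of 34000 transcripts (0.00294%), with 2412 at an unadjusted p under 0.05, and from that at 6 h for 3 (0.00882%), with 3358. Between 6-day and 4-day larvae at 24 h it differed for 21 (0.0618%), with 2025 at an unadjusted p under 0.05. A larger value at 6 days was seen in 15 of the 21 and a smaller one in 6. Of the 21, 11 were called as rises in the 6-day set itself and 0 as falls, and 14 had opposite signs at the 2 ages. The 21 were chosen by this same difference, which favours opposite signs and calls in the 6-day set. Their median log2 fold change was -0.08 at 4 days and 0.45 at 6 days. The counts therefore do not show that the dose acted in opposite directions. Between 5-day and 4-day larvae 2 differed (0.00588%), with 1607 at an unadjusted p under 0.05.

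At the high dose, FMt045902 passed the threshold in each of the 6 sets of 24 and 48 h. After 6 h it stood at 0.16 ± 0.11, 0.10 ± 0.12 and 0.24 ± 0.11 above control on the log2 scale in 4-, 5- and 6-day larvae (SE, edgeR adjusted p = 0.63, 1.00 and 0.92). Its log2 fold change was 1.77 at 24 h and 2.32 at 48 h in 5-day larvae and 2.39 and 2.65 in 6-day larvae, against 1.25 and 1.90 in 4-day larvae (edgeR adjusted p at most 0.021 in each). It was the called transcript for which the difference between ages was tested and passed. Its effect at 24 h was larger at 6 days than at 4 days by 1.14 ± 0.26 on the log2 scale (SE, edgeR adjusted p = 0.030), a call that was lost in a fit of the 24 h sets only (1.14, adjusted p = 0.23). Its difference between 5 and 4 days was 0.51 ± 0.25 (adjusted p = 1.00), between 48 and 24 h 0.65 ± 0.25 (adjusted p = 0.59), and between 24 and 6 h 1.09 ± 0.26 (adjusted p = 0.097). At the low dose FMt045902 passed against control in 6-day larvae after 24 h (1.26 ± 0.23, SE, edgeR adjusted p = 0.0031) and in no other set. Each set has its own library code, so age and any other difference between sets cannot be told apart. For the remaining 3 called transcripts the 4 differences had adjusted p from 0.17 to 1.00.

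FMt004418 stood below control in both early 4-day sets, at -0.75 ± 0.24 after 6 h (SE, edgeR adjusted p = 0.26) and at -0.96 after 24 h, and near control in 5-day (-0.07) and 6-day larvae (0.04) after 24 h. Its mean control level after 24 h, on CPM scaled over all libraries, was 15.6 at 4 days, 8.03 at 5 days and 4.38 at 6 days. None of its tested differences in effect between sets passed (edgeR interaction test, adjusted p from 0.17 to 0.80). It was named for passing in this set, which favours a large value here. Whether the lower control level bears on the values in the other sets was not tested. FMt000532 rose at 48 h in 4-day larvae (0.65 ± 0.09, edgeR adjusted p = 1.9e-05) and at 24 and 48 h in 6-day larvae (0.48 and 0.70, adjusted p = 0.00079 and 9.7e-06), while in 5-day larvae it stood at 0.22 and 0.27 (adjusted p = 0.69 and 0.086). The third transcript that rose passed in all 6 sets of 24 and 48 h, at 0.38 to 0.56.

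**Figure D5:**
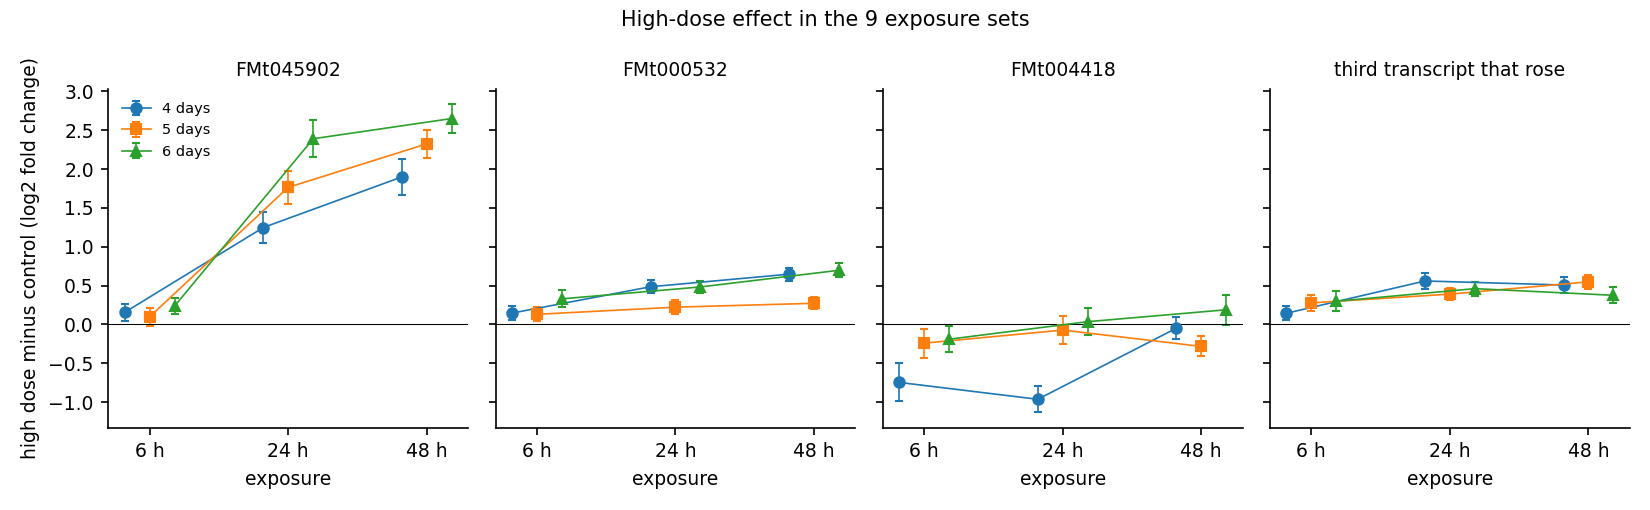
High dose minus control as log2 fold change (± SE) of the 4 called transcripts in the 9 exposure sets, by duration on the horizontal axis and age by marker. FMt045902 lies at 0.10 to 0.24 after 6 h and is highest at 6 days afterwards, and FMt004418 is low in the 4-day sets of 6 and 24 h.

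FMt045902 was also spread widely in some other high-dose groups. In 6-day larvae after 24 h, and in each age after 6 h, its high-dose log2 SD lay within the range of the control groups. The top of that range, 0.35, came from the 4-day controls after 48 h. In each of these sets it was larger than in the set's own controls. It was 0.35 against 0.20 in 6-day larvae after 24 h. After 6 h it was 0.32 against 0.22 at 4 days, 0.27 against 0.24 at 5 days and 0.31 against 0.18 at 6 days. Its log2 SD at the high dose and 24 h was 0.71 at 4 days, 0.73 at 5 days and 0.35 at 6 days, and at 48 h it was 0.79, 0.58 and 0.43, on CPM scaled over all libraries. After 6 h it was 0.27 to 0.32, and in the 9 control groups 0.18 to 0.35. In 6-day larvae after 24 h the low-dose group also had 0.79. These values are given as a description, with no test between sets.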

How the data were processed

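Messenger RNA of whole larvae was sequenced with the SENSE mRNA-Seq kit V2, per the labels' protocols. The authors deposited whole-number read counts per transcript, mapped to known fathead minnow transcripts per the series' design text. The submitters' processing notes name bcl2fastq 2.19.1, limma 3.40.6 and edgeR 3.26.8, with no role. The aligner, counting rule and build were not given in the sources used here, so reads of near-identical transcripts may be split between them. The table holds 34856 transcripts, the lowest with 166 counts over all libraries.

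The 30 libraries of the set were fitted together across all transcripts with edgeR 4.0.16 in R 4.3.3 (TMM, filterByExpr, robust quasi-likelihood F-tests, Benjamini-Hochberg, false discovery rate 0.05). SE is the log2 fold change divided by the square root of F. Spread was tested with limma 3.58.1 on absolute deviations of log2 CPM (prior count 2). Differences between sets came from a fit of 27 groups. Single values used permutation tests with 100000 resamples. DESeq2 1.42.0 was an alternative. Apparent age used 12534 transcripts and 78 control libraries. Plots used Python 3.11.15 with matplotlib 3.10.9. The test between groups, the tests of spread and the fit within the high-dose libraries were tried on simulated data, with outcomes not given here. The other procedures were not. No pair of libraries of a group agreed within counting noise (chi-square per degree of freedom at least 6.92), and each counted as 1 sample. This check cannot tell separate larvae from separate preparations of the same RNA.

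Transcripts were named by the smallest p in each direction among calls with a mean log2 CPM of at least 1. The groups, lists and named transcripts were chosen with earlier results of these data known. The ratio of variances, adjacent numbers as a random block, the fit of 24 h sets and the score without called transcripts were added after the data were seen, as were the 4 relations of FMt045902 with other transcripts and the score.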

Additional observations from a re-analysis of the deposited data

Results flagged for a closer look

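Several measures were each looked at in the control, low-dose and high-dose libraries of the set, 30 times in all. In 2 of these 1 library lay far from the nearest other one by Dixon's criterion, and chance gives about 1 in 20. High-dose library 34 had 31.0 M counts, against 15.5 M in the next. It also had the highest apparent age of the 30 libraries and the lowest level of FMt000532 in its group. Low-dose library 26 had a distance of 0.439 from the others of its group, against 0.388 in the next.

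The high-dose effect on FMt045902 at 24 h differed between 6-day and 4-day larvae by a log2 difference of 1.14, which passed the interaction test in the fit of all 27 groups (edgeR adjusted p = 0.030) and not in the fit of the 24 h sets alone (0.23).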

How the results depend on the processing

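The count of 4 calls was 0 to 10 when 1 library was left out, 21 with DESeq2, 26 in the fit of 27 groups and 0 with the 20 libraries alone or with sums of adjacent numbers. It was 3 to 5 with RLE size factors, no filter, limma-voom, apparent age as a covariate or adjacent numbers as a random block. High against low dose gave 0 calls in edgeR and 3 with DESeq2. The groups share no library numbers. With the position in the group as a replicate block, 4 transcripts were called, all rises, and FMt004418 missed the threshold (-0.95, adjusted p = 0.19). Same positions of high dose and control correlated at -0.21 to 0.21, above 0.1 in 3 of 10. The main fit did not pair libraries by position. These correlations cannot exclude a shared vessel or preparation, which is not given. Differences in spread were called for 0 to 2 transcripts without 1 library. Transcripts varying with FMt045902 numbered 0 with limma-voom, 6 with apparent age as a covariate and 0 to 15 without 1 library. The 3 differences between 24 and 6 h became 1 with limma-voom and 0 with the 4-day sets alone. The 21 between ages 6 and 4 became 10 with limma-voom and 9 with the 24 h sets, and the 2 between ages 5 and 4 became 0 and 1. The cause of these shifts was not tested. No sign of a called transcript reversed. No library was over 1.5 times its group's median distance, so the fit without such libraries was not run.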
